A study of Mus musculus with 4 samples.

Results

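The mitochondrial genome of the mouse was represented in the RNA-seq of fetal brown adipose tissue (BAT) by 13 genes, which are all of its protein genes. They were taken as the genes of the count table that lie on the mitochondrial chromosome (M), and they are 13 of the 22298 genes listed. The annotation places 37 genes on this chromosome, and the 2 ribosomal RNA genes and 22 transfer RNA genes among them were not analysed here. BAT was collected at E18.5 from C57BL/6 fetuses of dams that drank sterilized tap water (control, 2 libraries) or 20% (w/v) fructose water (fructose, 2 libraries) during pregnancy, with no other treatment in either group. How many fetuses or litters went into a library is not given in the sources used here, so the spread between libraries may be technical. The counts on genes totalled 18542897 to 23645147 per library. All 4 libraries are labelled male, but Ddx3y, Eif2s3y, Uty and Kdm5d, which lie on the Y chromosome, summed to 22.3 and 21.6 CPM in the control libraries and had 0 counts in both fructose libraries, where 3 counts would be 0.133 and 0.122 CPM. This difference runs along the groups, so it and the fructose treatment cannot be told apart in any comparison here, and no comparison is left without these libraries. CPM are counts per 1000000 counts of the library, after TMM normalization. The BAT marker Ucp1, the uncoupling protein of brown fat, stood at 9606 to 12425 CPM with overlapping groups. Of the liver genes, Ttr and Afp had 0 counts in every library, Apoa1 had 1 count in each and Alb had at most 2.

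The mitochondrial genome is a small circle of DNA that encodes a few core subunits of ATP synthase and of the electron transport complexes, while all other subunits come from nuclear genes and are imported. Complexes I, III and IV pass electrons from NADH to oxygen and pump protons out of the matrix, and complex V, the ATP synthase, uses the return of the protons to make ATP. In brown fat, UCP1 lets protons return without ATP synthesis, so that respiration yields heat. The circle is transcribed from both strands into long RNAs that are cut at the transfer RNAs lying between many of the protein genes. Neighbouring genes on the same strand with a transfer RNA between them share a transcript, but not necessarily the stability of the RNA that is cut out of it. No transfer RNA lies between mt-Atp8 and mt-Atp6 or between mt-Nd4l and mt-Nd4, which overlap on the same strand.

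The sequences of the genes show how tightly they are packed, which bears on how reads could be assigned to them. In the annotated transcripts of GENCODE M21 (GRCm38), mt-Atp8 and mt-Atp6 share 43 bases, mt-Nd4l and mt-Nd4 share 7, and mt-Nd5 and mt-Nd6 share 14 on opposite strands. The genes mt-Atp8 and mt-Nd4l are shown in full because they are the 2 shortest members and had the 2 largest fold changes, with the bases shared with the next gene in capitals.
mt-Atp8 (chrM:7766-7969, + strand): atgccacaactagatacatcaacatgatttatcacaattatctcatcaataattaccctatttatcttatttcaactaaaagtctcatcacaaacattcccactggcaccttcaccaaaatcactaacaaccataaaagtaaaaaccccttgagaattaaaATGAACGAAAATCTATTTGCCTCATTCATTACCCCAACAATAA
mt-Atp6, first 120 bases (chrM:7927-8046, + strand): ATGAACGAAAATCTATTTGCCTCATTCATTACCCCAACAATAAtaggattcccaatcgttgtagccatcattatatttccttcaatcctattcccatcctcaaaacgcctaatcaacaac
mt-Nd4l (chrM:9877-10173, + strand): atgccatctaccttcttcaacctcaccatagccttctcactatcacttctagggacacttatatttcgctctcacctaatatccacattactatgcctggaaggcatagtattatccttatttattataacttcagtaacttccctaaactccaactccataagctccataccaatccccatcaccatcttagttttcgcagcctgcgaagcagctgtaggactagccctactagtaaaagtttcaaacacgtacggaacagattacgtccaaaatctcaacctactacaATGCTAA

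The gene mt-Nd6 is the only member on the opposite strand, and its message differs in composition from those of the other 12. It holds 28.1% G and 5.97% C, against 5.88% to 16.1% G and 22.1% to 29.97% C in the others, as the first 120 bases of mt-Nd6 and of its neighbour mt-Nd5 show.
mt-Nd6 (chrM:13951-14070, - strand): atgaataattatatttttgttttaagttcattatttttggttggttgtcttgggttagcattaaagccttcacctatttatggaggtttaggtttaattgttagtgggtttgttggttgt
mt-Nd5 (chrM:11742-11861, + strand): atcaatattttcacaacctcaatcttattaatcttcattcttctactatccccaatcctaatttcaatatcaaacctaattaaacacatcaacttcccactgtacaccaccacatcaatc
The ends of these genes meet on opposite strands, with the shared bases in capitals.
mt-Nd5, last 60 bases (chrM:13506-13565, + strand): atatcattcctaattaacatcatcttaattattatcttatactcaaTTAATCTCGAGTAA
mt-Nd6, last 60 bases (chrM:13552-13611, - strand): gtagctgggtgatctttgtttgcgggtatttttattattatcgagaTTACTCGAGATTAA
The genes mt-Co3, mt-Nd4 and mt-Cytb end with a single T in place of a full stop codon, a feature of mitochondrial messages in which the poly(A) tail supplies the missing bases. Their last 30 bases follow, with the incomplete codon in capitals, beside mt-Co1, which carries its own stop codon.
mt-Co3 (chrM:9361-9390, + strand): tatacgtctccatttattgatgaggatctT
mt-Nd4 (chrM:11515-11544, + strand): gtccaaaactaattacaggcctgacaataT
mt-Cytb (chrM:15259-15288, + strand): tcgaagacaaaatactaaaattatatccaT
mt-Co1 (chrM:6843-6872, + strand): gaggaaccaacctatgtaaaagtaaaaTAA

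The mitochondrially encoded genes took a larger share of the counts in fetal BAT of fructose-fed dams. Their share of all counts was 5.89% and 6.49% in control, against 10.8% and 11.2% in fructose. The means were 6.19% ± 0.421 and 10.99% ± 0.328 (SD, n = 2 libraries each), a difference of 4.80 percentage points and a ratio of 1.77. The lowest fructose library lay above the highest control library by far more than the libraries of a group differed. Complex IV, the cytochrome c oxidase, held the most, with 3.61% and 4.17% of all counts in control and 6.68% and 7.01% in fructose. The 7 genes of complex I together held 1.53% and 1.59% in control and 2.51% and 2.59% in fructose. For mt-Cytb of complex III the share was 0.390% and 0.417% in control and 0.783% and 0.850% in fructose. The 2 genes of complex V had 0.368% and 0.310% of all counts in control and 0.783% and 0.766% in fructose. For all 4 complexes, both fructose libraries were above both control libraries. With 2 libraries against 2, an exact permutation test (two-sided) cannot give a p below 0.333, which is the value found for the total share. The 95% Wilson intervals of these shares were at most 0.0256 percentage points wide, and cover counting error only. In these bulk libraries, the number of cells of a type and the amount of RNA per cell cannot be told apart.

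**Figure D1:**
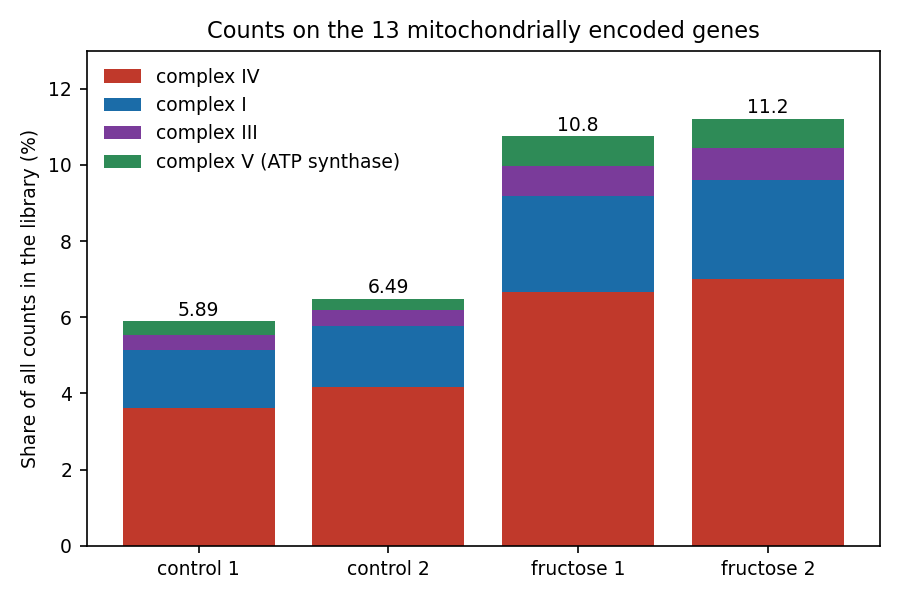
Each bar is 1 library, and its height is the share of all counts on the 13 mitochondrially encoded genes in percent, split by respiratory complex. The control bars reach 5.89% and 6.49% and the fructose bars 10.8% and 11.2%, with complex IV as the largest part of each.

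Of the 13 genes, 12 rose in fructose and none fell. A gene was called when edgeR (quasi-likelihood) gave it a Benjamini-Hochberg adjusted p-value below 0.05 over the 12888 genes tested, which was so for 15.5% of all tested genes in the higher direction and 10.7% in the lower. All 13 passed the filter on low counts, the lowest count of any member in any library being 1018. The median log2 fold change of the 13 genes was 0.92, beside 0.0025 over all genes tested, and their values ran from 0.22 for mt-Nd2 to 1.57 for mt-Atp8. With the cut-offs used in the study (fold change over 1.3, and p below 0.05 before adjustment) applied to edgeR's values, 11 of the 13 were higher and none lower, beside 17.6% and 6.18% of all tested genes. Both fructose libraries lay above both control libraries in CPM for all 13 genes, beside 33.4% of all tested genes, and 31.6% had both below. DESeq2 called 12 higher and none lower, where it called 10.6% of the tested genes higher and 8.17% lower.
The number of calls changed when trends with base composition or gene length were removed from each library. The members are AT-rich, with 31.9% to 41.1% GC, and across nuclear genes the fold change was lower at higher GC content. In place of 12, 4 members were called higher with the GC content trend removed, 13 with the gene length trend removed and 9 with both removed, as described below.

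**Figure D2:**
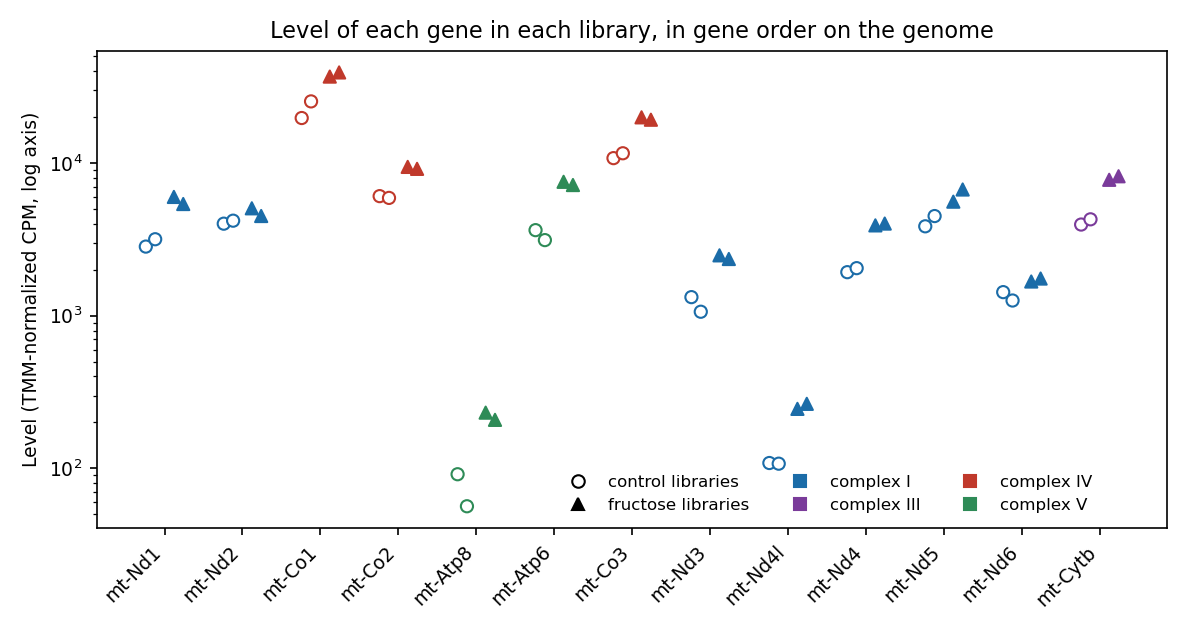
Points give the level of each gene in CPM on a log axis, with open circles for the 2 control libraries and triangles for the 2 fructose libraries, coloured by complex and ordered as on the genome. Both triangles stand above both circles for each of the 13 genes, with the smallest gaps for mt-Nd2, mt-Nd5 and mt-Nd6.

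Complex I (NADH dehydrogenase) takes up electrons from NADH, and its 7 mitochondrially encoded subunits form much of its membrane arm. Of these genes, 6 rose, and their fold changes spread more widely than those of the other complexes, with log2 values from 0.22 to 1.24. mt-Nd1 (ENSMUSG00000064341, chrM:2751-3707), which lies where the quinone-reducing arm meets the membrane, was at 2839 and 3172 CPM in control and 6004 and 5395 CPM in fructose. Its log2 fold change was 0.92 (standard error, SE, 0.10, adjusted p = 0.000255 by edgeR).
Its neighbour mt-Nd2 (ENSMUSG00000064345, chrM:3914-4951), a membrane subunit of the proton-pumping arm, was at 4011 and 4196 CPM in control and 5057 and 4502 CPM in fructose. The gap between the groups was smaller than the gap between the 2 fructose libraries, and the difference was not called (log2 fold change 0.22, SE 0.10, adjusted p = 0.118 by edgeR). It was called without control replicate 2 (0.25, edgeR adjusted p = 0.0212), where the single control library is assumed to vary like the fructose libraries.
mt-Nd3 (ENSMUSG00000064360, chrM:9459-9806), a small subunit near the quinone site, was at 1324 and 1062 CPM in control and 2487 and 2354 CPM in fructose, and rose by 1.02 on the log2 scale (SE 0.11, adjusted p = 0.000225 by edgeR). mt-Nd4l (ENSMUSG00000065947), the shortest of the 7 complex I members, had the most even control libraries of all members, with 108 and 107 CPM. It stood at 245 and 265 CPM in fructose. This was the largest rise within complex I, with a log2 fold change of 1.24 (SE 0.08, adjusted p = 1.32e-05 by edgeR). mt-Nd4 (ENSMUSG00000064363, chrM:10167-11544), a proton-pumping subunit, was at 1930 and 2050 CPM in control and 3909 and 4017 CPM in fructose, a log2 fold change of 0.99 (SE 0.09, adjusted p = 0.000148 by edgeR).
At the far end of the complex I genes, mt-Nd5 (ENSMUSG00000064367, chrM:11742-13565), the outermost proton-pumping subunit, was at 3854 and 4499 CPM in control and 5590 and 6717 CPM in fructose. Relative to its mean it had the most uneven fructose libraries (6154 ± 797 CPM, SD, n = 2), and it rose by 0.56 (SE 0.12, adjusted p = 0.00558 by edgeR). mt-Nd6 (ENSMUSG00000064368, chrM:13552-14070), the subunit made from the opposite strand, was at 1428 and 1258 CPM in control and 1676 and 1753 CPM in fructose. It had the smallest rise that was called, at 0.35 (SE 0.09, adjusted p = 0.0177 by edgeR), and lost the call without fructose replicate 2 (0.32, edgeR adjusted p = 0.110).

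Complex III (cytochrome bc1) has a single mitochondrially encoded subunit, cytochrome b, which carries both of its quinone sites. Its gene mt-Cytb (ENSMUSG00000064370, chrM:14145-15288) was at 3959 and 4283 CPM in control and 7774 and 8202 CPM in fructose. The rise was much larger than the spread within a group, with a log2 fold change of 0.95 (SE 0.10, adjusted p = 0.000178 by edgeR). mt-Cytb lies beside mt-Nd6 but on the other strand, and the ratio of its counts to those of mt-Nd6 went from 2.77 and 3.40 in control to 4.64 and 4.68 in fructose. The ratio of mt-Nd5, the other neighbour of mt-Nd6, to mt-Nd6 overlapped between the groups, with 2.70 and 3.58 in control against 3.34 and 3.83 in fructose.

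The 3 core subunits of complex IV (cytochrome c oxidase), which reduces oxygen, were the highest members and rose by similar amounts. mt-Co1 (ENSMUSG00000064351, chrM:5328-6872), the catalytic subunit, had more counts than any other gene in every library. It stood at 19748 and 25379 CPM in control and 36898 and 39282 CPM in fructose, and alone took 1.95% and 2.47% of all counts in control and 3.72% and 4.07% in fructose. Its log2 fold change was 0.76 (SE 0.13, adjusted p = 0.00212 by edgeR), and the 2 control libraries differed more than those of the other complex IV genes, so that leaving out control replicate 1 gave 0.58 and leaving out control replicate 2 gave 0.95. mt-Co2 (ENSMUSG00000064354, chrM:7013-7696), which receives electrons from cytochrome c, was at 6077 and 5917 CPM in control and 9445 and 9171 CPM in fructose. It rose by 0.63 (SE 0.10, adjusted p = 0.00110 by edgeR). mt-Co3 (ENSMUSG00000064358, chrM:8607-9390), the third core subunit, was at 10781 and 11604 CPM in control and 19951 and 19245 CPM in fructose, and rose by 0.81 (SE 0.10, adjusted p = 0.000478 by edgeR).

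The 2 mitochondrially encoded subunits of ATP synthase belong to the membrane part through which protons return. mt-Atp6 (ENSMUSG00000064357, chrM:7927-8607), the subunit that forms the proton channel, was at 3638 and 3130 CPM in control and 7541 and 7184 CPM in fructose. It rose by 1.12 on the log2 scale (SE 0.10, adjusted p = 0.000148 by edgeR). mt-Atp8 (ENSMUSG00000064356), a short accessory subunit, was at 91.5 and 56.4 CPM in control and 232 and 208 CPM in fructose. It had the largest rise of all members, at 1.57 (SE 0.17, adjusted p = 0.000202 by edgeR), and also the largest relative spread between control libraries, so that the value was 1.26 without control replicate 2 and 1.96 without control replicate 1.
Reads counted on mt-Atp8 numbered 1734 and 1018 in control but 5241 and 5091 in fructose, while mt-Atp6, which overlaps it, had 68933 and 56448 in control and 170560 and 175988 in fructose. The counting tool and its rule for reads on overlapping genes are not given in the sources used here, so the split of reads between mt-Atp8 and mt-Atp6, and between mt-Nd4l and mt-Nd4, is uncertain. The same holds for mt-Nd5 and mt-Nd6, whose reads cannot be told apart in the overlap if strand was not used. In that case reads from long RNAs of the other strand could also be counted anywhere along mt-Nd6, which was not tested.

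Levels between genes can be compared per length, as CPM per kilobase. On this scale mt-Co1 and mt-Co3 were the highest members, with means of 14604 and 14276 CPM per kilobase in control and 24654 and 24997 in fructose. Their order changed from library to library, so these neighbours did not differ beyond their spread. mt-Co2 followed with 8768 in control and 13609 in fructose, then mt-Atp6 with 4969 and 10812, and these kept the places 3 and 4 in every library.
At the lower end mt-Nd4 had 1444 CPM per kilobase in control and 2876 in fructose, and stood at place 11 in every library. mt-Nd4l, with 363 and 859, and mt-Atp8, with 363 and 1077, were the lowest, and their order changed between the 2 control libraries.
In between, mt-Nd2 alone had places that did not overlap between the groups. It stood at place 5 in both control libraries, with a mean of 3953 CPM per kilobase, and at place 8 in both fructose libraries, with 4605. The places of mt-Cytb, mt-Nd1, mt-Nd3, mt-Nd5 and mt-Nd6 overlapped between the groups. The counts of mt-Nd1 were 0.708 and 0.756 times those of mt-Nd2 in control, and 1.19 and 1.20 times in fructose. This ratio of adjacent genes on 1 strand does not depend on how the libraries are scaled, and its groups did not overlap (exact permutation p = 0.333, two-sided, the smallest that 2 against 2 libraries allow, 0.467 after Benjamini-Hochberg adjustment over the 7 ratios computed). The groups did not overlap either for mt-Cytb to mt-Nd6, mt-Atp8 to mt-Atp6, mt-Nd4l to mt-Nd4 and mt-Atp6 to mt-Co3, each with the same p. They overlapped for mt-Nd5 to mt-Nd6 (exact permutation p = 0.667, adjusted 0.778) and for mt-Co1 to mt-Co2 (3.25 and 4.29 in control, 3.91 and 4.28 in fructose, exact permutation p = 1).

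Since the total rose, the unequal response of the members was tested by scaling each library to its mitochondrially encoded total, a fit chosen after the values were seen. In this fit a gene that follows the total has a log2 fold change near 0, and the median over all 12888 genes tested falls to -0.77, so that 68.8% of them were called lower and 1.37% higher. Relative to the total, mt-Atp8 (0.78, edgeR adjusted p = 0.00194), mt-Nd4l (0.47, edgeR adjusted p = 0.00120) and mt-Atp6 (0.35, edgeR adjusted p = 0.0343) were higher. mt-Nd2 (-0.55, edgeR adjusted p = 0.000994) and mt-Nd6 (-0.42, edgeR adjusted p = 0.00835) were lower. The remaining 8 genes were not called, with values from -0.21 for mt-Nd5 to 0.24 for mt-Nd3, and mt-Co1, which is itself 33.03% to 38.04% of the total, stood at -0.0051. Within the overlapping pairs, mt-Atp8 with mt-Atp6 and mt-Nd4l with mt-Nd4, the split of reads is uncertain. Its part in their separate values was not tested.
As shares of the mitochondrially encoded counts, mt-Nd2 went from 6.71% and 6.29% in control to 4.73% and 4.16% in fructose. On the same measure mt-Nd6 went from 2.39% and 1.89% to 1.57% and 1.62%. By complex, complex V held 6.24% and 4.78% in control and 7.28% and 6.83% in fructose. Complex III held 6.62% and 6.42% in control and 7.28% and 7.57% in fructose. Complex I held 25.9% and 24.5% in control and 23.4% and 23.1% in fructose. Complex IV held 61.2% and 64.3% in control and 62.1% and 62.5% in fructose, where the groups overlapped. None of the 4 shares could pass an exact permutation test with these numbers of libraries (p = 0.333 for complexes I, III and V and 1 for complex IV, 0.444, 0.444, 0.444 and 1 after Benjamini-Hochberg adjustment over 4). The difference in percentage points of complex V was 1.54, and moved to 0.814 without control replicate 2, and that of complex I was -1.98, and moved to -1.27 without control replicate 1.

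**Figure D3:**
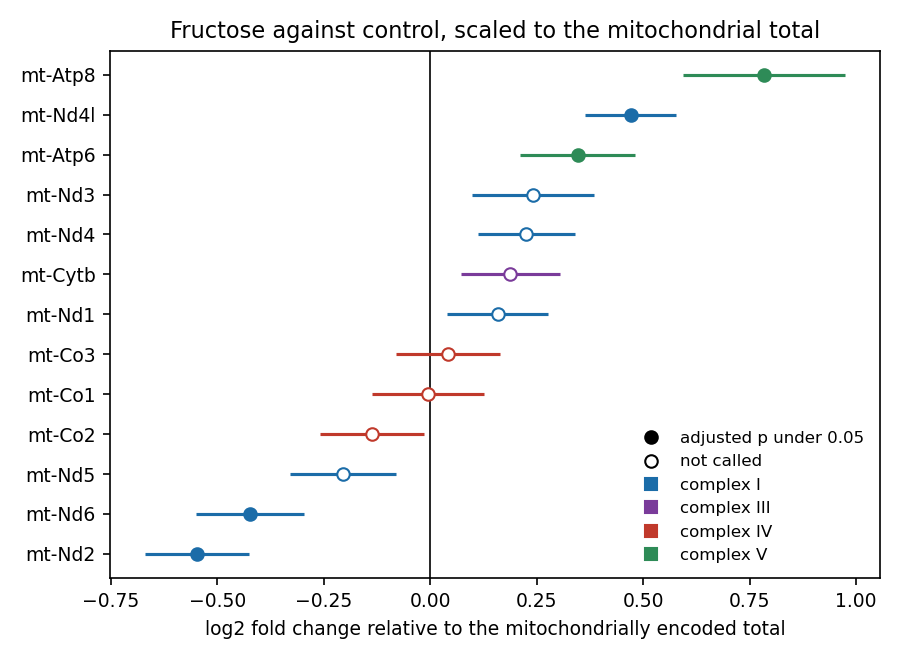
Points give the log2 fold change of each gene, fructose against control, after each library is scaled to its mitochondrially encoded total, with bars for the standard error and filled points for an adjusted p-value under 0.05. mt-Atp8, mt-Nd4l and mt-Atp6 lie above 0 and mt-Nd2 and mt-Nd6 below it, while the 8 open points lie between -0.21 and 0.24.

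Part of the difference between the groups ran with base composition and gene length across the nuclear genes, and the members stand at the edge of both. Over the 12871 nuclear tested genes with a known transcript, the log2 fold change had a Spearman correlation of -0.50 with GC content and 0.50 with length, which is a description across genes that share 4 libraries. The 1079 nuclear genes with a GC content within the range of the members had a median log2 fold change of 0.62, and 47.4% of them were called higher. The 2121 nuclear genes with a length within that of the members (204 to 1824 bases) had a median of -0.25, and 2.69% of them were called higher. In the 73 nuclear genes within both ranges the median was 0.26, 16.4% were called higher, and 16.4% had a value above the members' median of 0.92. Among the 200 nuclear genes with the most counts, the median was -0.23 and 0.5% lay above the members' median. Within the 13 members, the fold change had a Spearman correlation of -0.077 with GC content and -0.54 with length.
With the GC content trend removed from each library, the median of the members was 0.29. The 4 genes mt-Nd4l (0.86, edgeR adjusted p = 0.000497), mt-Atp8 (0.69, edgeR adjusted p = 0.00877), mt-Atp6 (0.45, edgeR adjusted p = 0.0131) and mt-Cytb (0.45, edgeR adjusted p = 0.0190) were called higher, beside 10.3% of all tested genes. mt-Nd2 (-0.48, edgeR adjusted p = 0.0267) and mt-Nd6 (-0.43, edgeR adjusted p = 0.00839) were then called lower, beside 5.62%. With the gene length trend removed, all 13 genes were called higher, with a median of 1.23, beside 9.55% of all tested genes called higher and 5.3% lower. With both removed, 9 were called higher and none lower, with a median of 0.55, beside 5.4% called higher and 3.46% lower. The genes not called then were mt-Nd2 (-0.26), mt-Nd6 (-0.11), mt-Nd5 (0.077) and mt-Co1 (0.45, edgeR adjusted p = 0.0884).
The genes mt-Atp8, mt-Nd4l, mt-Atp6 and mt-Cytb were called higher as first fitted and with either or both trends removed, while mt-Nd2, mt-Nd5 and mt-Nd6 changed sign between these fits. With the GC content trend removed and the replicate number as a block, mt-Atp8 and mt-Nd4l were still called, and mt-Atp6 (0.45, adjusted p = 0.0507 by edgeR) and mt-Cytb (0.45, adjusted p = 0.0576 by edgeR) were not.

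**Figure D4:**
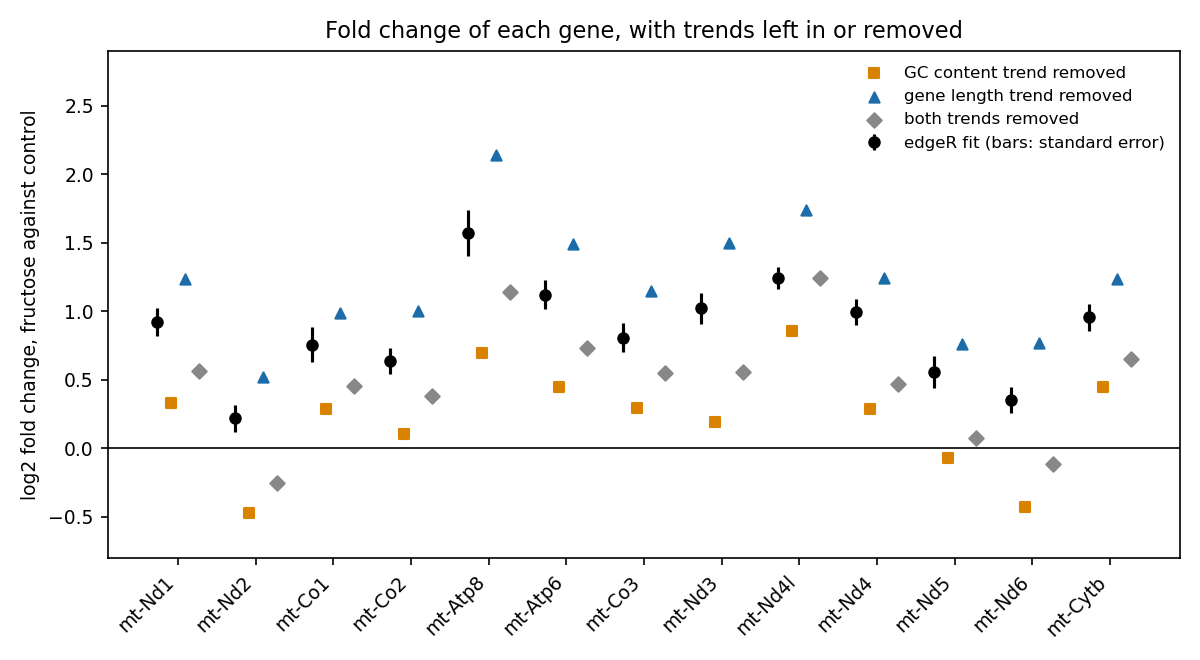
For each gene, the log2 fold change of fructose against control is shown as fitted (circles, with standard errors) and with the GC content trend, the gene length trend or both removed from each library. Removing the GC content trend lowers all 13 values and takes mt-Nd2, mt-Nd5 and mt-Nd6 below 0, while removing the length trend raises all 13.

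Reads of several members could also match the nuclear genome. A stretch of chromosome 1 (24611535 to 24616197, GRCm38) carries 7 annotated pseudogenes that are copies of mt-Co1, mt-Co2, mt-Atp6, mt-Co3, mt-Nd3, mt-Nd4l and mt-Nd4. Of these copies, 5 equal the mitochondrial sequence over their whole length, that of mt-Nd3 has 1 difference in 345 bases and that of mt-Co1 has 6 in 492. How reads that match both places were counted is not given in the sources used here, and the copies themselves were not analysed here. The 7 members with such a copy had log2 fold changes of 0.63 to 1.24, and the other 6 had 0.22 to 1.57.

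The nuclear-encoded partners of the same complexes were mostly lower in fructose, a pattern that shrank when the trends above were removed. Of 83 nuclear subunits tested, 54 were called lower and 1 higher in fructose by edgeR, with a median log2 fold change of -0.31. Of all tested genes, 10.7% were called lower and 15.5% higher. The share called lower was 29.8% among the nuclear genes with a length within that of the members, and 44% among the 200 nuclear genes with the most counts. In complex I, 31 of 37 nuclear subunits were called lower and none higher (median -0.32), with called values from Ndufv2 (-0.26), a subunit of the NADH-oxidizing arm, to Ndufb11 (-0.52), a membrane arm subunit. In complex III, 5 of 9 were called lower (median -0.38), among them Uqcrc1 (-0.42), a core subunit and the one with the highest level. In complex IV, 8 of 16 were called lower (median -0.33), among them Cox4i1 (-0.46), the regulatory subunit with the highest level. The only one called higher was Cox6a2 (1.34), an isoform known from heart and skeletal muscle. Its level was low, with 1.48 and 2.22 CPM in control and 5.22 and 4.16 CPM in fructose. Cox6a1 (-0.49) stood at 1752 to 2558 CPM. In ATP synthase, 8 of 17 were called lower (median -0.26), including the catalytic beta subunit Atp5b (-0.32). Complex II, which has no mitochondrially encoded subunit, had 2 of 4 called lower (median -0.29).
The ratio of mitochondrially encoded to nuclear counts within a complex was higher in fructose for all 4 complexes. It was 0.621 and 0.647 in control and 1.24 and 1.27 in fructose for complex I, and 0.252 and 0.261 in control and 0.606 and 0.670 in fructose for complex III. For complex IV it was 1.88 and 2.25 in control and 4.30 and 4.56 in fructose. For complex V the ratio was 0.125 and 0.0985 in control and 0.303 and 0.296 in fructose. In none of the complexes did the groups overlap (exact permutation p = 0.333 each, two-sided, the smallest possible). The nuclear medians shrank when the trends were removed, to -0.23 with the GC content trend removed (33 of 83 called lower) and to -0.046 with the length trend removed (7 called lower, 3 higher), and with both removed the median was -0.047 (12 called lower, 3 higher).

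**Figure D5:**
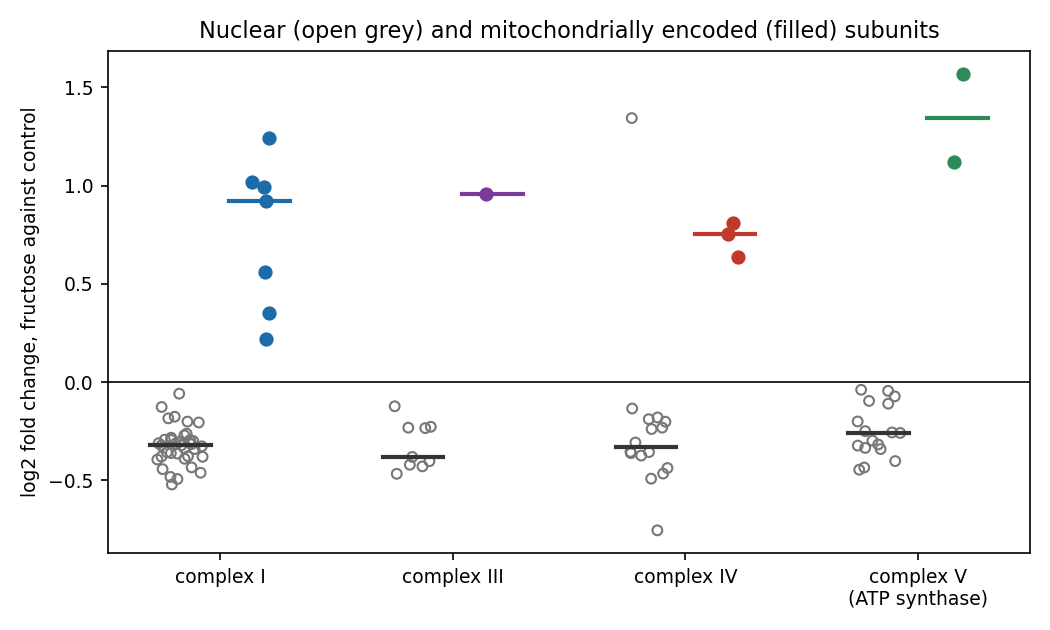
Points give the log2 fold change of fructose against control for the nuclear subunits (open grey) and the mitochondrially encoded subunits (filled) of each complex, with a line at each median. The filled points all lie above 0, and the grey points lie below 0 apart from Cox6a2 in complex IV.

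The genes that replicate, transcribe and process the mitochondrial genome showed no common direction. Of 20 genes of mitochondrial transcription and DNA maintenance, 3 were called higher and 1 lower, with a median log2 fold change of 0.075. Over all tested genes the shares called were 15.5% higher and 10.7% lower, so the counts of the 3 lists given here are read against these. Polrmt, the mitochondrial RNA polymerase, was lower (-0.34, edgeR adjusted p = 0.0181), and Primpol, a primase-polymerase, was higher (1.16, edgeR adjusted p = 0.00267). The gene of the list with the highest level, Polg, the catalytic subunit of the mitochondrial DNA polymerase, was not called (-0.12, edgeR adjusted p = 0.30). Of 31 genes of mitochondrial RNA processing and stability, 5 were called higher and 5 lower (median -0.11). They ran from Pnpt1, an RNA-degrading enzyme (0.76, edgeR adjusted p = 0.00544), to Hsd17b10, a subunit of the mitochondrial ribonuclease P that cuts transfer RNAs out of the long transcripts (-0.53, edgeR adjusted p = 0.00121). The list of 22 genes for charging mitochondrial transfer RNAs holds the synthetases that load the amino acids and Qrsl1, Gatb and Gatc, the subunits of an amidotransferase that acts on an already loaded transfer RNA. Of these genes, 3 were called lower and none higher (median -0.16), and the lowest was Sars2, the seryl enzyme (-0.37, edgeR adjusted p = 0.0168). With both trends removed, 1, 0 and 0 genes of these 3 lists were called higher and 0, 0 and 1 lower.

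Markers of other cell types were summed to see what moved along with the mitochondrial share. Of all tested genes, 15.5% were called higher and 10.7% lower, and the counts called in these lists are read against these shares. The 17 skeletal muscle genes, a tissue that is rich in mitochondria itself, summed to 308 and 408 CPM in control and 915 and 707 CPM in fructose, and all 15 that were tested were called higher. The 14 brown adipocyte genes summed to 24341 and 26214 CPM in control and 24253 and 22397 CPM in fructose, and 3 were called higher and 3 lower. Those called higher were Ppargc1a (1.16), Elovl3 (0.79) and Ebf2 (0.55), and those called lower Cox8b (-0.44), Cox7a1 (-0.36) and Adipoq (-0.28). Cox7a1 and Cox8b are also counted among the nuclear subunits of complex IV. Ucp1 alone made up 9606 to 12425 CPM of these sums. The 8 erythroid genes summed to 19205 and 15295 CPM in control and 11767 and 12142 CPM in fructose, with 5 called lower. With both the GC content and the gene length trend removed, 0 erythroid genes were called (median -0.081). In that fit 14 skeletal muscle genes were called higher (median 1.67), beside 5.4% of all tested genes called higher and 3.46% lower. Sums of endothelial (1020 to 1077 CPM), macrophage (104 to 142 CPM) and fibroblast genes (2322 to 2699 CPM) overlapped between the groups. The 6 cardiomyocyte genes summed to 6.54 and 8.26 CPM in control and 13.04 and 10.3 CPM in fructose, with both of the tested genes called higher. Most of this sum was Myl4, with 5.86 and 7.93 CPM in control and 11.2 and 9.14 CPM in fructose. Myh6, Nppa, Tnni3 and Myl7 had at most 5 counts in any library and were not tested. With the trends left in, the skeletal muscle sum thus separated the groups in the direction of the mitochondrial share, and the erythroid sum in the opposite direction. The cardiomyocyte sum separated them too, but rested mainly on Myl4. The brown adipocyte sums of the groups nearly met (24253 CPM in fructose against 24341 CPM in control), a gap far smaller than the spread within either group. The part of these cell types in the result was not tested.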

How the data were processed

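RNA-seq of E18.5 BAT was analysed in 4 libraries, 2 from control and 2 from fructose-fed dams, grouped by the treatment label. The authors filtered reads with Fastp, mapped them to mm10 with Bowtie2 and Tophat, assembled transcripts with StringTie and merged them with Cuffmerge, and deposited raw counts per gene without normalization or pooling. RNA selection, the counting tool, its strand setting and the annotation release are not given in the sources used here. Counts in the 4 single-library tables equalled those in the joint table. Symbols, positions, transcript lengths and GC content came from GENCODE M21 (GRCm38), in which 43 of the 22298 identifiers had no match.

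Members were the genes on chromosome M, all of which are named. The members and the lists were chosen with earlier results of these data known. Nuclear lists are given by counts called and medians, with the gene of the highest mean CPM and the called genes of the highest and lowest log2 fold change as the ones to name, not all of which are described. Genes kept by filterByExpr (12888) were tested with edgeR 4.0.16 (R 4.3.3, TMM, quasi-likelihood, two-sided, no covariate), and standard errors were taken from the log2 fold change and its F statistic. Shares and ratios were compared by exact permutation (scipy 1.17.1). Trends were removed by lowess across genes (span 0.3) as offsets. Other alternatives were DESeq2 1.42.0, other scalings and filters, the replicate number as a block and each library left out. On simulated counts for the 12888 genes, with 200 changed 2-fold, edgeR recovered 80% and called 16 unchanged genes. Replicate libraries were not duplicates of each other (chi-square per degree of freedom over the tested genes 13.4 in control and 8.87 in fructose). Over the 13 members it was 819.6 in control and 544.5 in fructose, so their make-up differed between replicates far beyond counting error.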

Additional observations from a re-analysis of the deposited data

How the results depend on the processing

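Of the 13 genes, 12 or 13 were called higher and none lower by DESeq2, with DESeq2's size factors, scaling by library size only, library sizes without the members, other filters on low counts, and the gene length trend removed with or without the replicate block. mt-Nd2 was called when scaled by library size only (0.28, edgeR adjusted p = 0.0371) and with the length trend removed (0.52). Without each library in turn, the median log2 fold change of the members was 0.84 to 0.95.
The members called higher were 4 with the GC content trend removed, 9 with both trends removed and 3 when scaled to the mitochondrially encoded total (members called lower 2, 0 and 2). With the GC trend removed mt-Nd5 was -0.069. Scaled to the mitochondrial total, a fit added after seeing the data, the median was 0.16, and mt-Nd2 (-0.55), mt-Nd6 (-0.42), mt-Nd5 (-0.21), mt-Co2 (-0.14) and mt-Co1 (-0.0051) were below 0.
The replicate number as a block changed no call of a member (12 higher, 0 lower), beside 16.4% of all tested genes called higher and 11.2% lower. Together with the GC trend removed it left 2 called higher (mt-Atp8 and mt-Nd4l) and 1 lower (mt-Nd6), with a median of 0.30, mt-Nd2 at -0.47, mt-Nd5 at -0.058 and mt-Nd6 at -0.43, with the length trend removed 13 higher (median 1.24), and with both removed, added after seeing the data, 5 higher and 0 lower (median 0.56, mt-Nd2 -0.25, mt-Nd6 -0.11). For the fits with the block and a trend removed, the shares of all tested genes called are not given. The same holds for DESeq2's size factors, the library-size scalings and the other filters on low counts, so these counts have no background beside them. The replicate numbers were not taken as pairs, since the deviations of same-numbered libraries had a correlation of -0.027 over 12888 genes. With the trends removed but no block, the median was 0.29 (GC), 1.23 (length) and 0.55 (both), with mt-Nd2 at -0.48 and -0.26 and mt-Nd6 at -0.43 and -0.11 for GC and both. The cause of these changes was not tested.
The difference in total share was 4.80 percentage points, 4.80 against nuclear protein-coding genes, 5.86 without the 50 nuclear genes with the most counts and 4.50 to 5.09 without each library. Without each library, the complex shares differed by -2.68 to -1.27 (I), 0.758 to 1.05 (III), -2.01 to 1.06 (IV, which turned to 1.06 without control replicate 2) and 0.814 to 2.28 (V) percentage points. The share of ribosomal RNAs and shares without them were not run, since only the 13 protein genes were analysed. Of 10 candidate nuclear copies looked up, 1 was found, Gm10720, which is not among the copies on chromosome 1 described above. It had 0 counts in every library, so adding it could not change the share and says nothing about reads of those copies. Depth did not limit the members, which had at least 1018 counts, whereas 2 libraries per group limit every exact test to a p of 0.333.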
